A study of Mus musculus with 6 samples.

Results

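Target clusters assigned to the miRNAs of the imprinted *Dlk1*-*Dio3* domain were examined in 3 AGO2 chimeric eCLIP libraries from whole mouse brain, in which AGO2 is immunoprecipitated and the miRNA is ligated to the RNA it sits on, so that chimeric reads name the miRNA and its target. An assignment is a target cluster listed with a miRNA. The members were the assignments whose miRNA carries 1 of 42 numbers given to miRNAs of the domain, on either arm and with any letter. WT had 487 such members among 22074 assignments, *Mov10* Deletion replicate 1 had 1243 among 30526 and replicate 2 had 575 among 13468, or 2305 of 66068 in all. All brains were C57Bl/6J and taken at birth (P0). WT was a single brain, so no replicate check of any genotype difference was possible and none is tested. *Mov10* Deletion was represented by 2 brains of mice carrying a floxed *Mov10* allele, *Emx1*-Cre and, from a further cross, a heterozygous *Mov10* mutation. MOV10 is an RNA helicase that associates with AGO2. In the study, its protein was strongly reduced in these mice but not absent, and *Emx1*-Cre acts in excitatory forebrain neurons, whereas the whole brain was used here. In bulk tissue, fewer cells of a type and less RNA per cell cannot be told apart.

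The *Dlk1*-*Dio3* domain of mouse chromosome 12 holds one of the largest groups of miRNA genes known in mammals. They are read from the maternal chromosome within the long non-coding transcripts that begin at *Meg3* and run through *Rian* and *Mirg*, while *Dlk1*, *Rtl1* and *Dio3* are read from the paternal one. The miRNAs are abundant in the embryo and brain, and several, such as miR-134, are known for their part in dendrite and synapse development. A miRNA guides AGO2 mainly through its seed, bases 2 to 8, which pairs with a complementary site that often lies in the 3′ untranslated region of the target.

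Of 70 member miRNAs found in any library, 67 could be matched to a RefSeq mature sequence. These had 66 different seeds, so nearly every member had a seed of its own, and the only shared seed joined miR-411-3p and miR-379-3p. The sequences below, from RefSeq on GRCm38.p6 and written 5′ to 3′ with the seed in capitals, are the 4 most frequent members and 5 further miRNAs whose clusters recur in every library. Among the latter, miR-376a-3p and miR-376b-3p differ within the seed.
miR-370-3p: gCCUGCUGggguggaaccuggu
miR-433-3p: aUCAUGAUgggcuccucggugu
miR-300-3p: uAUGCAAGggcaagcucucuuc
miR-127-3p: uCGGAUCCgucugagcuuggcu
miR-382-5p: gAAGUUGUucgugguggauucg
miR-770-5p: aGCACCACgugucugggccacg
miR-541-5p: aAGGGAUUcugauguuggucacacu
miR-376a-3p: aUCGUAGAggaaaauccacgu
miR-376b-3p: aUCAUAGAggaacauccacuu

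Several features of the libraries bear on every value below. Whenever a target cluster of one *Mov10* Deletion list overlapped a cluster of the other, its limits were identical (4052 of 4052 overlapping clusters), while only 11 of 7278 WT clusters overlapping replicate 1 had the same limits. The 2 *Mov10* Deletion lists are therefore not independent in where clusters begin and end. The sequencing depth of every library is unknown. The deposited score of a cluster was at least 3 in each library and is not described in the methods, so it serves here to describe single clusters, and as a minimum only in an alternative setting. AGO2 clusters were numerous on the neuronal genes *Map2*, *Mapt*, *Stmn2* and *Tubb3* (20 to 241 a library) and were 1 to 3 on the liver gene *Alb* and 0 on the heart gene *Myh6* and the T cell gene *Cd3e*. *Mov10* itself held 11, 9 and 9 AGO2 clusters in WT and *Mov10* Deletion replicates 1 and 2. These are binding sites and not transcript levels, so they do not check the deletion.

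The domain's miRNAs took up a larger part of the assignments in both *Mov10* Deletion libraries than in WT. Their share was 2.21% in WT, with an exact Clopper-Pearson 95% interval from 2.02 to 2.41. The first *Mov10* Deletion library stood at 4.07% (3.85 to 4.30) and the second at 4.27% (3.93 to 4.62). The *Mov10* Deletion mean was 4.17% ± 0.14 (SD, n = 2), 1.89 times the WT share, and neither *Mov10* Deletion interval overlapped that of WT. These intervals, like all below, cover counting error only, and with 1 WT brain the genotype and the individual brain cannot be told apart. The brain miRNA miR-124-3p alone took a large part of each list. With its assignments left out of the total, the shares were 3.82%, 6.25% and 6.76% in the same order. Assignments on a ribosomal RNA copy, *Rn18s-rs5*, and on the mitochondrial chromosome made up 23 and 13 of the WT members, 38 and 12 of those of replicate 1, and 20 and 8 of those of replicate 2. Without them the shares were 2.09%, 3.98% and 4.16%.

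miR-370-3p was the most frequent member in each library. WT listed it 38 times, *Mov10* Deletion replicate 1 listed it 108 times and replicate 2 listed it 53 times, which is 0.172%, 0.354% and 0.394% of all assignments, and ranked 50th, 42nd and 34th among all miRNAs. The same 4 miRNAs, miR-370-3p, miR-433-3p, miR-300-3p and miR-127-3p, held the leading 4 places in every library, miR-127-3p sharing the fourth in WT. miR-433-3p had 31, 105 and 33 assignments in the same order, miR-300-3p had 35, 94 and 38, and miR-127-3p had 27, 86 and 46. Within a library the intervals of these 4 overlapped, so their order is not resolved by counting.

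Below them, miR-382-5p (27, 46 and 20 assignments), miR-376a-3p (27, 37 and 24), miR-376b-3p (22, 50 and 16), miR-127-5p (22, 38 and 16) and miR-770-5p (22, 35 and 19) differed less in share between the genotypes. For each of these 5 miRNAs the *Mov10* Deletion mean was 1.22 to 1.42 times the WT share and the intervals overlapped. The widest gap among the most frequent members was that of miR-329-3p, with 4 assignments in WT against 38 and 17 in *Mov10* Deletion, a mean share 6.92 times that of WT. miR-495-3p followed with 11 against 35 and 28 (3.24 times). Of the other members named here, miR-487b-3p had 15, 38 and 17 assignments, miR-541-5p had 20, 36 and 13, and miR-665-3p had 15, 34 and 18.

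**Figure D1:**
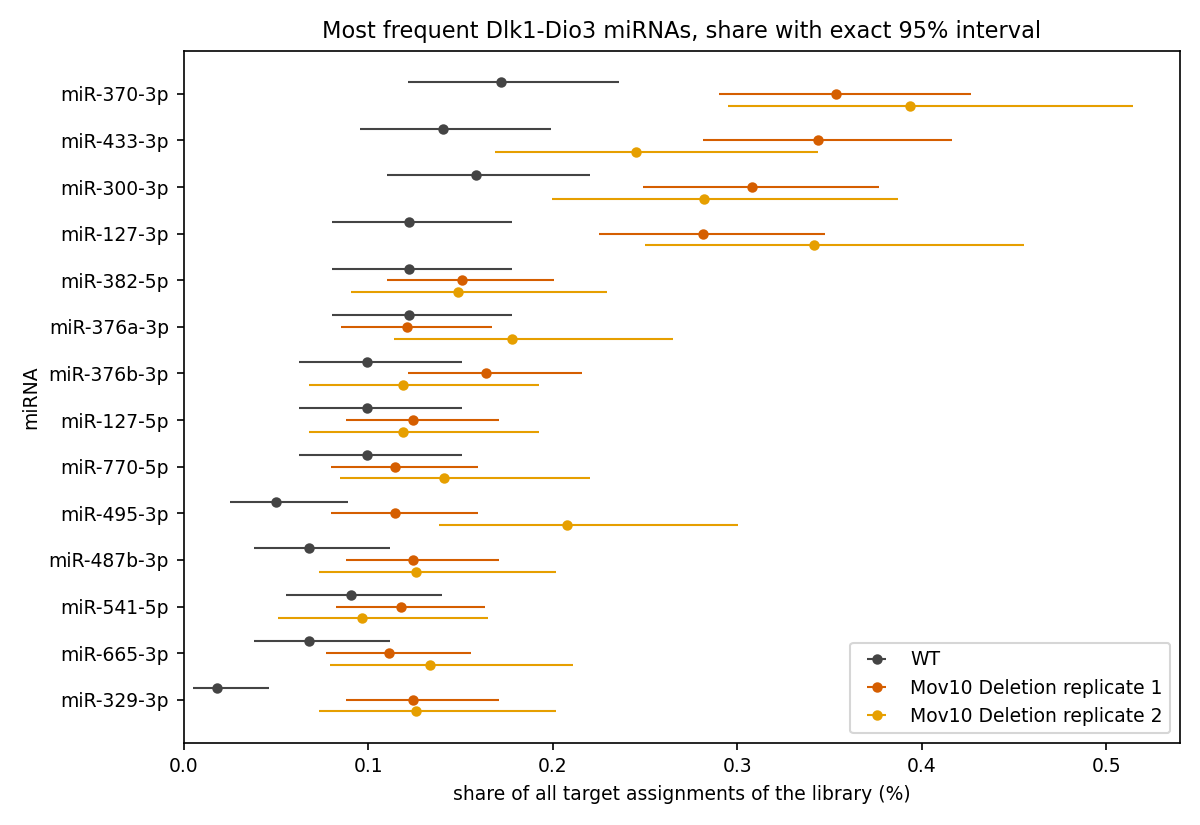
Share of all target assignments (%) taken by each member miRNA that was among the 10 most frequent members of any library, in WT (grey) and *Mov10* Deletion replicates 1 (orange) and 2 (yellow); bars are exact 95% intervals. miR-370-3p, at 0.172% in WT and 0.354% and 0.394% in *Mov10* Deletion, miR-127-3p and miR-329-3p stand clear of their WT intervals in both *Mov10* Deletion libraries.

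Of the 15 members with at least 10 WT assignments, 13 had a higher share in both *Mov10* Deletion libraries than in WT and 1 had a lower share in both. Over all 102 miRNAs with at least 10 WT assignments this held for 62 (60.8%), so a rise of share was the more usual direction for any miRNA. The interval lay above that of WT in both *Mov10* Deletion libraries for 2 of the 15 members, miR-370-3p and miR-127-3p, against 9.80% of all miRNAs. The median ratio to WT was 1.54 over the 15 members and 1.26 over the 102 miRNAs.

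The higher share was spread over the domain. The miRNAs antisense to *Rtl1* (miR-127, miR-136, miR-431, miR-433 and miR-434), which match the retrotransposon-derived *Rtl1* mRNA across their whole length, made up 21.8%, 24.9% and 24.7% of the member assignments (WT, then *Mov10* Deletion replicates 1 and 2). The large group from miR-379 to miR-410 on the *Mirg* side made up 60.6%, 57.0% and 58.4%. The miRNAs from *Meg3* up to the antisense group (miR-337, miR-665 and miR-770, only the last within *Meg3*) made up 8.83%, 8.45% and 7.30%. Between the antisense group and the *Mirg* side, miR-341 and miR-370 made up 8.83%, 9.65% and 9.57%. The intervals of each of these groups overlapped between libraries, so the make-up of the members was not distinguishable at these counts. The 3′ arm carried most assignments in each library, and the 5′ arm held 33.1%, 28.2% and 29.6%.

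**Figure D2:**
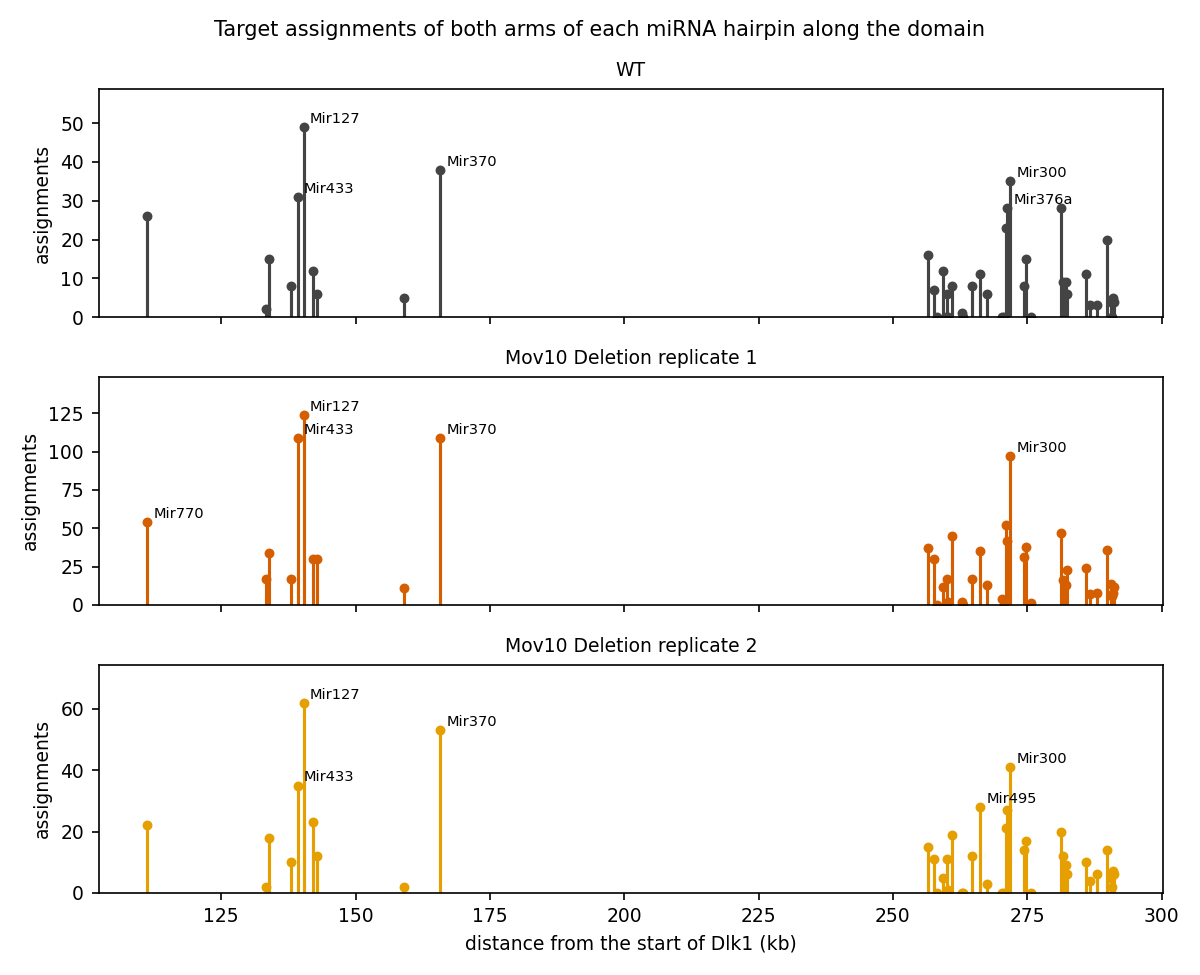
Number of target assignments of both arms of each of 43 miRNA hairpins (vertical axis, a scale for each library) against the distance of the hairpin from the start of *Dlk1* in kb, in WT and both *Mov10* Deletion libraries. *Mir127*, *Mir433*, *Mir370* and *Mir300* carried tall lines in each library, and *Mir127*, with 49, 124 and 62 assignments on its 2 arms, the tallest.

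The AGO2 clusters at the hairpins themselves give a second view of the same miRNAs. Of the 43 hairpins, 41 in WT and 38 in each *Mov10* Deletion library overlapped an AGO2 cluster, and 19, 27 and 22 overlapped an enriched one, meaning one whose log2 IP over input and −log10 p both reach 3. Over all AGO2 clusters 2.11%, 5.18% and 3.10% were enriched, likewise most in replicate 1. *Mir127* reached a log2 IP over input of 6.93 in WT and 7.83 and 6.12 in *Mov10* Deletion, and *Mir136* reached 6.68, 7.81 and 8.14. *Mir136* had only 6, 30 and 12 target assignments, so a strongly enriched hairpin was not always a frequent one in the target lists. *Mir370* was enriched in each library but less strongly than these 2, at 3.13, 4.05 and 4.16, although miR-370-3p was the most frequent member. *Mir770* was not enriched in any library (1.43, 0.33 and 1.25) and had 26, 54 and 22 assignments.

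In WT, member clusters lay near the end of their genes more often than those of other miRNAs. A cluster was called terminal when its midpoint was in the last 1000 nt of a gene on the same strand, where the 3′ untranslated region usually lies. Terminal clusters made up 28.3% of the WT members (24.4 to 32.6), against 18.8% of all WT assignments. Replicate 1 of *Mov10* Deletion had 12.8% (11.0 to 14.8) against 14.1% of all its assignments, and replicate 2 had 17.6% (14.5 to 20.9) against 15.2%. The member intervals of WT and of each *Mov10* Deletion library did not overlap. These counts include clusters on the ribosomal copy, which has no 3′ untranslated region. With the ribosomal copy and mitochondria left out, the member shares were 28.6%, 11.8% and 15.9%. The share over all assignments was not computed that way. The comparison miRNAs were lower in WT than the members, at 17.4% for miR-124-3p and 14.8% for let-7 and miR-98. The median distance of a member cluster from the gene end was 2674 nt in WT and 11846.5 and 8735.5 nt in *Mov10* Deletion, against 6413, 14922 and 13050 nt over all assignments, the ribosomal copy and mitochondria left out. Clusters 100 kb or more from the end were 10.7% of the members in WT and 23.0% and 21.5% in *Mov10* Deletion, against 19.1%, 26.1% and 24.4% over all assignments, which were thus also higher in *Mov10* Deletion.

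Member clusters also coincided less often with enriched AGO2 clusters in *Mov10* Deletion. In WT 17.0% of member assignments lay on one (13.8 to 20.7), against 20% of all WT assignments. The *Mov10* Deletion members stood at 7.56% (6.15 to 9.18) and 9.57% (7.29 to 12.3), against 14.7% and 14.1% of all assignments. The AGO2 lists themselves held 7582 enriched clusters in WT and 31892 and 19112 in *Mov10* Deletion. let-7 and miR-98 reached 36.1%, 22.3% and 21.5% in the same order. The part of the members that shared their cluster with another miRNA moved with this result, at 38.6% in WT and 19% and 14.4% in *Mov10* Deletion, against 28.3%, 17.6% and 12.8% of all assignments. Among clusters listed with 1 miRNA only, the enriched share was 8.03% in WT and 3.97% and 4.88% in *Mov10* Deletion, against 11.6%, 9.56% and 10.4% over all assignments of that kind. The terminal share on such clusters was 27.8%, 10.6% and 14.8%, against 15.9%, 12.1% and 13.3%.

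**Figure D3:**
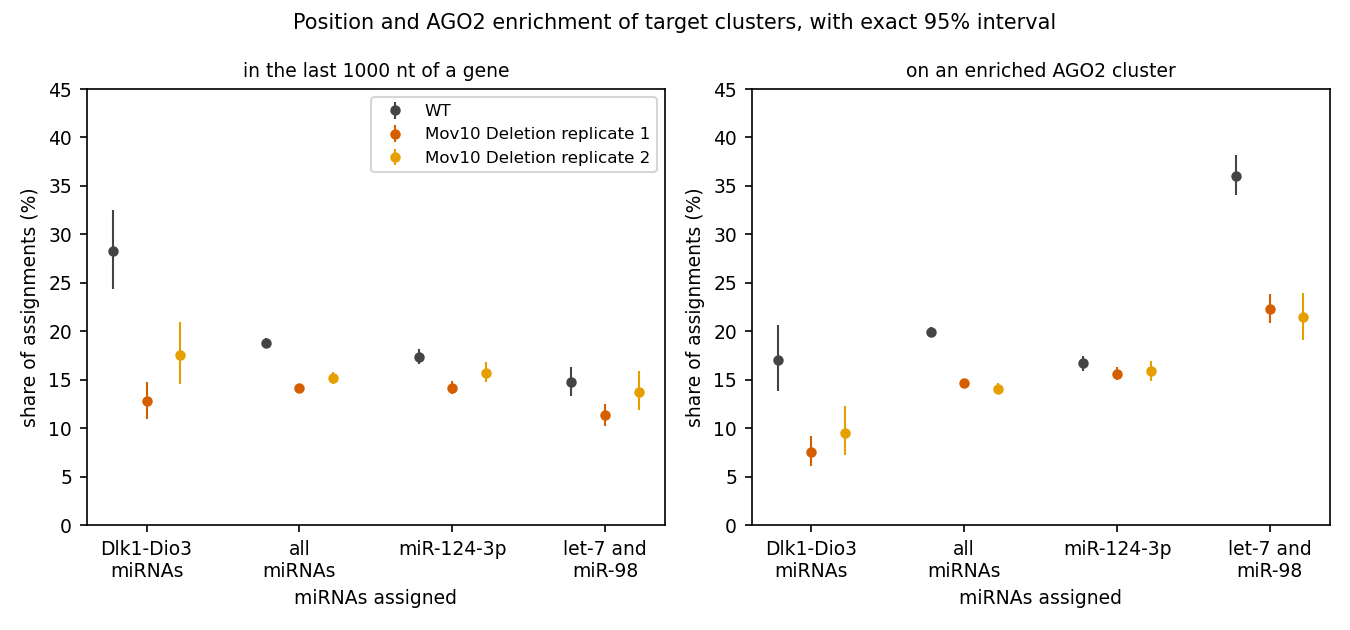
Share of assignments (%) in the last 1000 nt of a gene (left) and on an enriched AGO2 cluster (right) for the *Dlk1*-*Dio3* miRNAs, all miRNAs, miR-124-3p and let-7 with miR-98, by library; bars are exact 95% intervals. The WT members, at 28.3%, lie above every other terminal share, and the *Mov10* Deletion members have the lowest enriched shares, 7.56% and 9.57%.

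A minority of terminal member clusters carried the seed match of the miRNA they were assigned to. Within 20 nt of the cluster, a 7-nt match to bases 2 to 8 of the assigned miRNA was found for 37 of 120 WT clusters (30.8%, 22.7 to 39.9), 29 of 130 clusters of *Mov10* Deletion replicate 1 (22.3%, 15.5 to 30.4) and 16 of 82 clusters of replicate 2 (19.5%, 11.6 to 29.7). In the same windows the seed of another member matched at 0.758%, 0.676% and 0.702% on average. Clusters of miR-9-5p, another brain miRNA, held their own match at 18.7%, 15.2% and 9.82%. Clusters were placed by their distance from the gene end on GENCODE vM39 transcripts, so genes whose annotated ends differ, or with an intron in between, could miss a match that is there. The intervals of the members overlapped between the libraries.

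**Figure D4:**
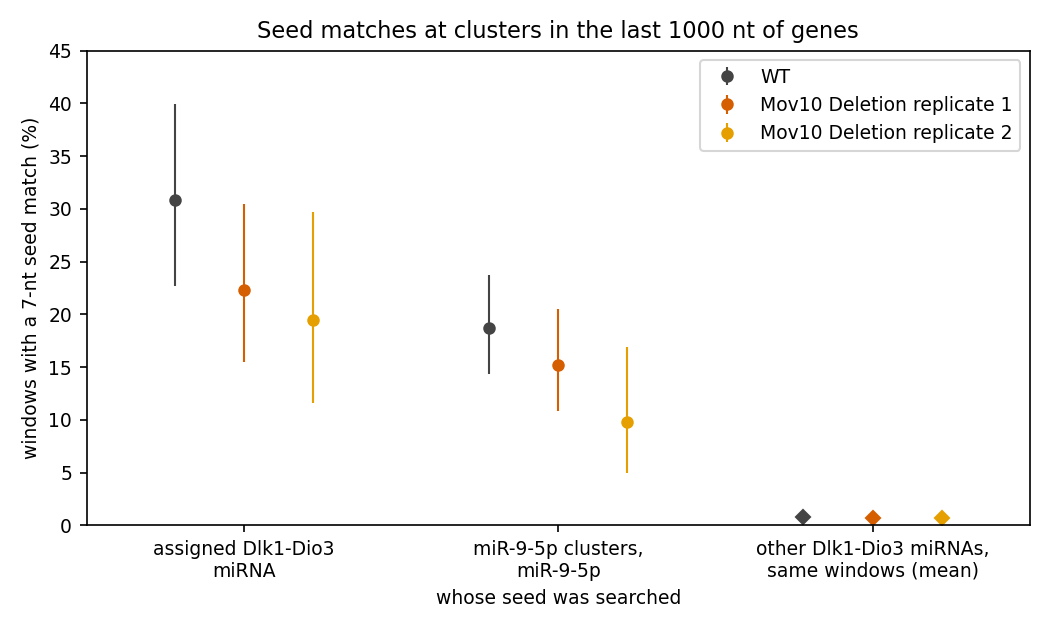
Share of terminal cluster windows (%) holding a 7-nt seed match to the assigned *Dlk1*-*Dio3* miRNA, to miR-9-5p in its own clusters, and on average to the other *Dlk1*-*Dio3* miRNAs in the members' windows, by library; bars are exact 95% intervals and diamonds have none. The assigned miRNA matched in 19.5% to 30.8% of windows and the other members in under 1%.

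The genes holding a member cluster numbered 402, 942 and 487 for WT and *Mov10* Deletion replicates 1 and 2. Of the protein-coding genes with a target cluster of any miRNA, 389 of 6114 held a member cluster in WT (6.36%), 915 of 7309 in replicate 1 (12.5%) and 472 of 5159 in replicate 2 (9.15%). Most of them held a single member assignment (359 genes in WT and 745 in replicate 1). WT shared 31.6% of its genes with replicate 1 and 18.4% with replicate 2, and the *Mov10* Deletion libraries shared 129 with each other, which is 13.7% of the list of replicate 1 and 26.5% of that of replicate 2. All 3 libraries had 44 genes in common, or 10.9%, 4.67% and 9.03% of the lists. For the much longer lists of genes with a target cluster of any miRNA, these shares were 59.4%, 49.0% and 70.1%, and lists of unequal length are not comparable in this respect.

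Of the 487 WT member assignments, 40 (8.21%) overlapped a cluster of the same miRNA in both *Mov10* Deletion libraries (5.93 to 11.0). Over all WT assignments 14.7% did, and 11.0% (10.5 to 11.6) without those of miR-124-3p, an interval that overlapped that of the members. These shares include clusters on the ribosomal copy and mitochondria, which made up 23 and 13 of the WT members. Such clusters are also among the 40 recurring ones, and 50 miRNAs were listed on one of them in WT. Whether the intervals overlap without them was not computed. These recurring clusters fell in 19 genes, apart from the ribosomal and mitochondrial ones, and outside any gene of the annotation on chromosome X (miR-370-3p), on chromosome 17 (miR-495-3p) and at *Mir668*. The clusters in genes include the members of highest score outside ribosomal RNA.

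*Peg3*, a paternally expressed zinc finger gene and so imprinted like the miRNAs themselves, held a miR-300-3p cluster in every library, with no other miRNA listed on it. Its score was 30.0 in WT (chr7:6706940-6706988, mm10), with an adjoining cluster at 16.5, and 43.5 and 27.0 in *Mov10* Deletion replicates 1 and 2 (chr7:6706934-6707020). Among recurring clusters listed with 1 miRNA in WT, no other scored higher in any of the 3 libraries. The log2 IP over input of AGO2 there was 2.45 in WT and 2.87 and 2.90 in *Mov10* Deletion, just under the limit for enrichment. It lay 3085 nt from the gene end in *Mov10* Deletion, and no 7-nt seed match of miR-300-3p was found in the canonical *Peg3* transcript.

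miR-370-3p recurred with a high but less even score. In *Hnrnpdl*, an RNA-binding protein gene, the scores were 101, 19.9 and 12.6 at one and the same cluster (chr5:100033848-100033961), 328 nt from the gene end. The cluster scored highest in WT, where 2 miRNAs were listed on it.

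In *Hnrnpdl*, *Tubb3*, *Spock2*, *Bri3bp* and *Mapre2* the only 7-nt seed match in the canonical transcript was not at the distance from the end of the recurring cluster. Clusters were placed by genomic distance from the gene end and matches by distance on the spliced transcript. An intron or a differing annotated end would shift one against the other, so a match at the cluster is not excluded. *Hmgn1*, *Sdc2*, *Epb41* and *Syt4* had matches to bases 2 to 7 only. By the same distances, some other recurring clusters held a 7-nt seed match inside their limits, shown here because the pairing can be read from them. The capitals are the 7 nt complementary to bases 2 to 8 of the miRNA, and the sites come from GENCODE vM39 transcripts.
Prdm2, miR-770-5p: gaaccgtgctctGTGGTGCagccatcc
Arl2bp, miR-369-3p: ttaaagatcaaaGTATTATatgctgtg
Igf1r, miR-376b-3p: ttgtggatttaaTCTATGAaactttca
Gnai1, miR-541-5p: ccatcattggtgAATCCCTgaactcta

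The miR-770-5p cluster of *Prdm2*, a histone methyltransferase gene, had scores of 23.7 in WT and 35.9 and 12.9 in *Mov10* Deletion. *Arl2bp*, which binds the ADP-ribosylation factor-like protein ARL2, scored 46.7, 28.6 and 6.62 with miR-369-3p. *Gnai1*, a subunit of an inhibitory G protein, scored 27.0, 20.9 and 3.87 with miR-541-5p, 75 nt from the gene end, and its AGO2 cluster was enriched in *Mov10* Deletion (log2 3.07 and 4.58) and at 2.24 in WT. *Igf1r*, the receptor for insulin-like growth factor 1, scored 14.7, 6.90 and 3.92 with miR-376b-3p. In WT, 3 miRNAs were listed on the *Arl2bp* cluster and 4 on that of *Igf1r*, against 1 on those of *Prdm2* and *Gnai1*.

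Among the other recurring genes, *Arpc2*, a subunit of the actin-nucleating ARP2/3 complex, held a miR-382-5p cluster near its end, at 13.8, 26.9 and 15. *Tubb3*, the neuronal beta-tubulin, held a miR-433-3p cluster at 13.8, 16.9 and 3.66, with 4 miRNAs listed on it in WT. *Spock2*, a brain proteoglycan, held miR-127-3p at 11.5, 7.72 and 8.53, and *Mapre2*, a microtubule end-binding protein gene, held miR-376a-3p at 7.59, 11 and 10. That *Mapre2* cluster lay 35831 nt from the gene end in WT, with no AGO2 cluster overlapping it. In *Mov10* Deletion the log2 IP over input there was 1.38 and 0.25, neither enriched. *Syt4*, a synaptotagmin of dendritic vesicles, held miR-496a-3p at 3, 5.79 and 5.86. Scores of *Bri3bp*, *Hmgn1*, *Arpp21*, *Sdc2* and *Epb41* stayed between 3 and 13.7. The *Arpp21* cluster lay 95605 nt from the gene end in WT, with no AGO2 cluster overlapping it. In *Mov10* Deletion the log2 IP over input there was −0.31 and −0.80.

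**Figure D5:**
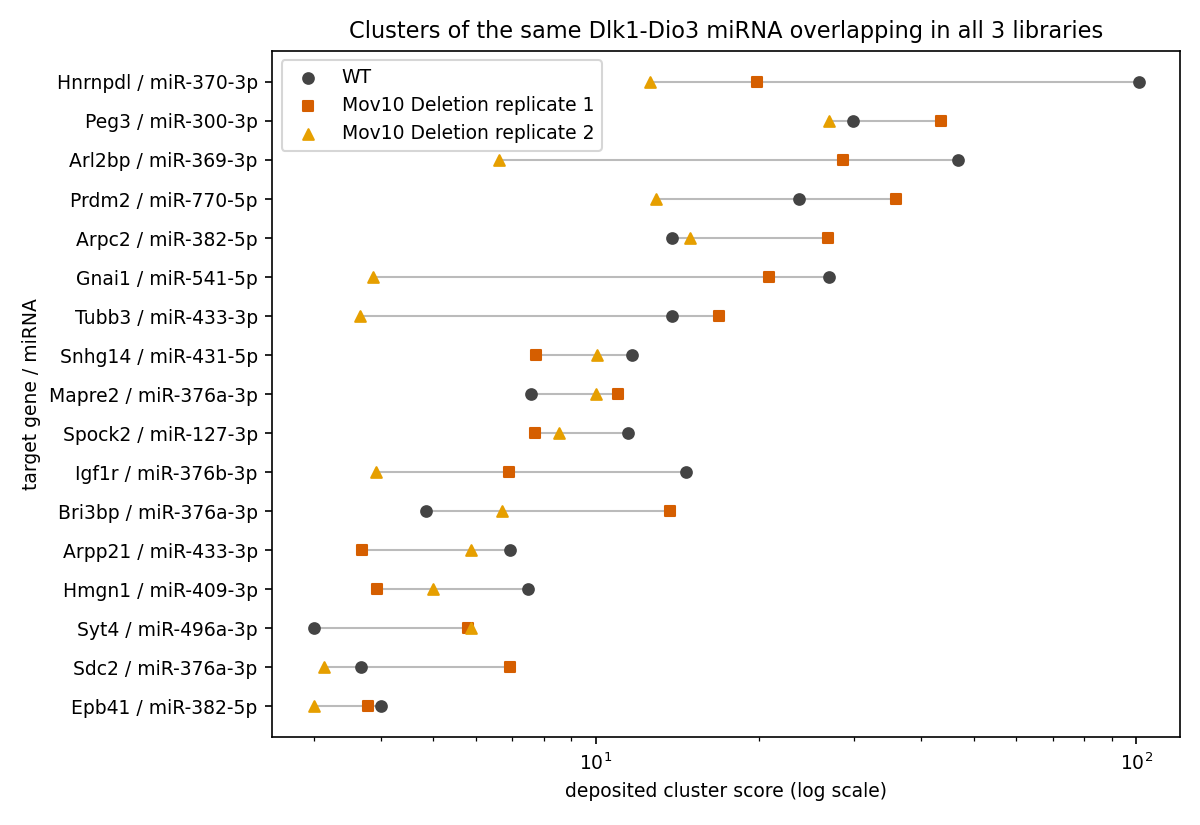
Deposited score (log axis) of the target clusters that overlapped with the same *Dlk1*-*Dio3* miRNA in all 3 libraries, 1 row for each of 17 gene and miRNA pairs, ribosomal and mitochondrial clusters left out; circles are WT, squares *Mov10* Deletion replicate 1 and triangles replicate 2. *Hnrnpdl* spans the widest range, from 12.6 to 101, and *Peg3* stays between 27.0 and 43.5.

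Counting clusters rather than scores, the genes with most member clusters in the 3 libraries included very long neuronal genes. *Ctnna2*, an alpha-catenin of neuronal adhesion, had 1 member cluster in WT, 7 in replicate 1 and 1 in replicate 2, none of them terminal. *Ptprd*, a receptor phosphatase of synapse formation, had 2, 4 and 1, and *Robo1*, the Slit receptor of axon guidance, had 1, 3 and 2. The clusters in these 3 genes did not recur at the same place. *Snhg14*, the long non-coding host of imprinted small nucleolar RNAs, had 1, 4 and 2, with a miR-431-5p cluster in each library at 11.7, 7.74 and 10. In WT, 4 miRNAs were listed on that *Snhg14* cluster. *Ank2*, *Malat1*, *Gabrb2*, *Bcl2*, *Elavl3*, *Igf2* and *Meg3* had 4 to 6 clusters each over the 3 libraries.

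Imprinted genes other than *Peg3* appeared with smaller scores. Of 45 imprinted genes, 7 of the 32 with a target cluster of any miRNA held a member cluster in WT, 10 of 32 in replicate 1 and 14 of 28 in replicate 2, against 6.36%, 12.5% and 9.15% of protein-coding genes. In at least 1 library 21 did. Only *Meg3*, *Igf2* and *Peg3* did in all. *Peg13* and *Trappc9* were both counted for one and the same cluster in WT, and again in replicate 2. The list also holds non-coding RNAs, among them the host transcripts *Meg3*, *Rian* and *Mirg*, unlike the protein-coding genes it is set against. No preference for imprinted genes is read from these counts. *Igf2*, the fetal growth factor, had a miR-376a-3p cluster in WT at 12 and in replicate 1 at 4.30, on AGO2 clusters of log2 IP over input 4.12 and 4.57, and miR-541-5p at 7.23 in replicate 2. In replicate 1 it also held 2 adjoining miR-433-3p clusters, at 5.30 and 6.11, on AGO2 clusters of log2 IP over input 7.68 and 7.87. Other miRNAs were listed on these clusters too, 3 and 6 in all on those of miR-433-3p. On those of miR-376a-3p, 3 were listed in WT and 2 in replicate 1, so the AGO2 values do not belong to 1 miRNA alone. In *Meg3*, miR-376b-3p scored 16.9 in WT and 3.78 in replicate 1. *Rian* (miR-127-5p, WT) and *Mirg* (miR-369-3p, replicate 2) each had a member cluster in 1 library, and *Rtl1* had none. The *Mirg* cluster overlapped the *Mir369* hairpin. In replicate 2 the only *Meg3* cluster, of miR-770-3p, overlapped the *Mir770* hairpin, so both lay on the hairpin of the miRNA they were assigned to.

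Of 11 genes reported in the field as targets of these miRNAs, 7, 8 and 7 held a target cluster of any miRNA. *Creb1*, a transcription factor of neuronal activity, and *Cdh2*, N-cadherin, held a member cluster, both in replicate 1. That is 0 of 7, 2 of 8 and 0 of 7, against 6.36%, 12.5% and 9.15% of protein-coding genes with any target cluster. At so few genes, neither an excess nor a lack of reported targets is read from these counts. *Creb1* had miR-323-3p at 5 and *Cdh2* had miR-127-3p at 3, on AGO2 clusters of log2 IP over input 1.80 and 0.54, neither enriched. Whether these are the miRNAs reported for each gene was not checked. None was found in *Limk1*, the spine kinase known as a target of miR-134. At the unknown depth of these libraries a missing cluster does not show that a site was unused. *Numa1*, the microtubule-binding gene the study followed, had 3, 4 and 0 target assignments in the same order of libraries and no member among them. miR-543-3p had 8, 16 and 11 assignments elsewhere. The study described a predicted miR-543 site in the *Numa1* 3′ untranslated region. There, miR-543 lowered a reporter in Neuro2A cells, and an AGO2 peak of WT brain extended to the site. Those are other measures than chimeric clusters, and the absence of a member here does not speak to them.

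In the lists of neuronal genes, replicate 1 held the most member clusters, as it did over all genes. The counts below stand against 6.36%, 12.5% and 9.15% of protein-coding genes with any target cluster, and nothing particular to a list is read from them. Postsynaptic genes with a member cluster were 2 of 25 with any target cluster in WT (*Grin2a* and *Nlgn3*), 11 of 26 in replicate 1 (among them the glutamate receptor genes *Gria1*, *Gria2* and *Grin2b*) and 5 of 25 in replicate 2. Axon guidance genes were 1 of 22, 9 of 23 and 5 of 21, with the receptors *Dcc*, *Unc5c*, *Unc5d*, *Robo1* and *Epha5* in both *Mov10* Deletion libraries. Neural transcription factors were 3 of 29, 9 of 29 and 3 of 27, and genes of the silencing machinery were 4 of 20 (*Ago2*, *Tnrc6a*, *Fmr1* and *Ddx6*), 6 of 20 and 2 of 17. Apart from *Robo1*, no gene of these lists held a member cluster in every library.

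Within the domain the members met their own hairpins. In each library miR-668-3p was assigned to a cluster on the 5′ arm of *Mir668*, and miR-668-5p to clusters on the 3′ arm, so each arm was listed as the target of the other. The arms, from RefSeq on GRCm38.p6, are shown because they pair in the hairpin.
miR-668-5p: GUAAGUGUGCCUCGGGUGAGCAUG
miR-668-3p: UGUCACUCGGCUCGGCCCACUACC
The cluster of miR-668-3p on the 5′ arm (WT chr12:109734733-109734758) scored 18.8, 7.89 and 13, and that of miR-668-5p on the 3′ arm (WT chr12:109734770-109734798) scored 24.0, 6.29 and 8.47. The same exchange of arms was seen for miR-431-3p on the miR-431-5p arm in replicate 2, at a score of 5.37. The 2 arms of a hairpin are neighbours in 1 precursor, and whether these chimeras come from a precursor or from mature miRNAs was not tested. Member clusters within the domain were 6 in each library.

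The members of highest score lay on *Rn18s-rs5*. miR-770-5p scored 188 in WT and 145 and 51.7 in *Mov10* Deletion on 1 cluster of it, and miR-127-3p scored 174, 114 and 67.3 on another, on which 47 miRNAs were listed in WT. Per the methods, reads that mapped to repeats or ribosomal RNA were set aside before mapping to the genome. For chimeras, the part of the read left after trimming the miRNA was mapped to the genome. No ribosomal filter of that part is stated. Clusters on this copy are not counted among the target genes.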

How the data were processed

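AGO2 chimeric eCLIP libraries of P0 brains (1 WT, 2 *Mov10* Deletion) were analysed from deposited clusters, with the inputs entering only through the values relative to input. Per the methods, the authors pruned and collapsed molecular identifiers with UMI-tools 1.1.1, trimmed with cutadapt 3.2, removed repeat and rRNA reads, mapped to mm10 with STAR 2.7.7a, called clusters with CLIPper, and matched miRNAs to reads with Bowtie 1.2.3. For each AGO2 cluster the authors deposited its enrichment over input as a log2 value. They also deposited its p-value as a −log10 value. Each target cluster was deposited with a score, which the methods do not describe. Depth is therefore unknown and only counting intervals could be given.

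Genes were RefSeq bodies on GRCm38.p6 (49997), with strands from RefSeq (27025) or GENCODE vM39 by symbol (18194). A target gene held a cluster midpoint on its strand, and an assignment was on an AGO2 cluster at 1 nt of overlap. Introns and exons were not separated. Mature sequences came from RefSeq, and miR-9-5p was the comparison for seeds, since no sequence of miR-124-3p was used here. No coordinate was converted. Python 3.11.15 with pandas 2.3.3 and SciPy 1.17.1 was used, and placement was tested on simulated clusters. No test was made between genotypes.

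The members, gene lists and rules for named genes were chosen with earlier results of these data known. Named were members among the 10 most frequent of a library, the 20 genes with clusters in all libraries and most member clusters, the 5 clusters of highest score in each library, targets reported in the field and imprinted genes. The recurring clusters outside this rule, *Numa1*, *Rn18s-rs5*, *Mir668*, the distance from the gene end, and the examples from neuronal lists were added after the values were seen. Recurring clusters of 2 genes are not reported here.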

Additional observations from a re-analysis of the deposited data

Results flagged for a closer look

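Further miRNAs of the domain lie outside the 42 numbers that defined the members, and their assignments were a signal outside the main measurement. WT listed them 6 times, *Mov10* Deletion replicate 1 listed them 27 times and replicate 2 listed them 13 times, each above the 3 that a count of 0 allows. miR-540-5p (2, 13 and 5) and miR-673-5p (4, 4 and 4) held most of them. With these miRNAs added, the share of the domain was 2.23% in WT and a mean of 4.26% in *Mov10* Deletion.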

How the results depend on the processing

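No paired analysis was possible because WT and *Mov10* Deletion share only 1 replicate number. In every alternative the share of the domain stayed higher, and the terminal and enriched shares lower, in *Mov10* Deletion than in WT. The domain share in WT, its *Mov10* Deletion mean and their ratio were 1.89%, 4.10% and 2.17 on clusters with 1 miRNA, 2.54%, 4.47% and 1.76 on distinct clusters, 1.5%, 3.49% and 2.33 at a score of at least 5, and 3.82%, 6.5% and 1.70 without miR-124-3p in the total. The enriched share in WT and the *Mov10* Deletion mean were 27.5% and 13.3% at a log2 of at least 2, 22.9% and 11.0% at a score of at least 5, and 8.03% and 4.43% on clusters with 1 miRNA. The terminal share was 16.4% and 8.72% for 500 nt, and 42.1% and 26.2% for 2000 nt. At a score of at least 5 the target genes were 101, 313 and 141, and the genes in all libraries 11. The latter were 23 on clusters with 1 miRNA, 20 where the miRNA was the same and 19 where its clusters overlapped, and, as a share of the WT list, rose from 10.9% to between 18.4% and 31.6% with either *Mov10* Deletion library left out, since fewer lists then had to agree. Leaving out the ribosomal copy and mitochondria, and the total without miR-124-3p, were chosen after seeing the data. Of 84 alternative values, 54 moved by less than the spread or the interval (counts by less than 1.5 times). Among these are the means and ratios with 1 *Mov10* Deletion library left out. They could not move by more than the spread of the 2 libraries, so they say nothing about stability. Depth is unknown, 1 WT brain gives no spread, and both *Mov10* Deletion lists share cluster limits.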
